A study of Caenorhabditis elegans with 95 samples.

Results

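The vitellogenins are the yolk proteins of *C. elegans*, and their transcripts were followed through light and temperature cycles by 10 probe sets of the Affymetrix *C. elegans* Genome Array out of 22548 probe sets other than array controls. These 10 were taken by annotation, as every probe set whose gene symbol is or contains vit-1 to vit-6. The family was chosen with earlier results of these data known. The arrays held RNA from whole wild-type Bristol N2 adults grown on E. coli HB101, whose L4 larvae had been moved to plates with 25 µM FUDR, an inhibitor of DNA synthesis that stops progeny from developing. LD animals were entrained for 5 days to 12 h of light at 500 to 1000 lux and 12 h of dark at 18°C, and DD animals were collected on the following day in constant darkness at 18°C. WC animals were entrained for 4 days in darkness to 12 h at 25°C and 12 h at 15°C, and CC animals were collected on the following day at a constant 15°C. Control animals were kept in darkness at 18°C and were never entrained. RNA was taken every 4 h, at hours 2, 6, 10, 14, 18 and 22 of entrainment, where hour 0 is lights on or the start of warmth, and at hours 26, 30, 34, 38, 42 and 46 of the free-running day. The 95 arrays comprised 18 LD, 18 DD, 30 WC, 18 CC and 11 control arrays, in 3, 3, 5, 3 and 2 independent time series. Hour 6 of control series 6 was not analysed here. For 5 arrays the labels give 2 biological replicates in the sample. A later day is also an older animal in this design, so the light or temperature regime and the age of the animals cannot be told apart between LD and DD or between WC and CC.

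Vitellogenins are large lipid-carrying proteins related to the apolipoprotein B of vertebrates. They are made in the intestine of the adult hermaphrodite, secreted into the body cavity and taken up by growing oocytes through the receptor RME-2, where they feed the embryo. In *C. elegans*, vit-1 to vit-5 encode the related yolk proteins of the YP170 class, and vit-6 encodes a precursor that is cleaved into YP115 and YP88. Their transcripts are among the most abundant in the adult hermaphrodite, and their transcription depends on GATA factors of the intestine such as ELT-2.

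The deposited value is a standardised score. Log2 expression was expressed by the authors as a deviation from the time-series mean of the probe set, and every array was then scaled to mean 0 and variance 1. A score of 1 is thus 1 SD of the probe sets of that array, and neither a level nor a fold change of a vitellogenin can be had from it. A probe set that stays at its own mean, for whatever reason, falls on a score that many others share on the same array, called the array floor below, and this floor ranged from -0.106 to 0.105 over the 95 arrays. Detection or saturation of a transcript cannot be read from the scores. Since all samples were whole animals, a smaller share of intestinal RNA and less vitellogenin transcript within the intestine cannot be told apart.

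The members were unevenly covered. One probe set, 177065_at, carried vit-1 and one, 191323_at, carried vit-2. vit-4 had 171723_x_at, 172134_x_at and 172673_x_at to itself, vit-5 had 172696_x_at, and 172133_x_at and 194239_x_at were annotated to both vit-4 and vit-5. vit-6 had 173411_s_at and 190649_at. No probe set was annotated to vit-3. In the RefSeq annotation of the WBcel235 assembly, vit-1 to vit-5 lie on chromosome X and vit-6 on chromosome IV, and vit-3 and vit-4 are neighbours with no protein-coding gene starting between them. Of the 10 IDs, 6 end in _x_at and 1 in _s_at, which marks probes shared by several transcripts, so signal from near-identical vitellogenin copies may be pooled or split between vit-3, vit-4 and vit-5.

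The 2 days of a series could be compared only where the scores themselves showed that both days had been centred together. This was so for LD and DD of series 4 and 6 and for WC and CC of series 3, 4 and 6. LD series 3, DD series 2, WC series 1 and both control series had each been centred alone. No centring set was found for WC series 2. No 2 arrays correlated above 0.717, so none was counted as a repeat of another. Nothing in the labels states which of the populations kept in opposing cycles gave each array. The p-values measure the scatter of arrays left after the terms for series and hour, not the spread between series.

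Of the 10 probe sets, 8 hardly moved. Apart from vit-1 and 172673_x_at, the scores of vit-2, vit-4, vit-5 and vit-6 stayed within 0.2 of the array floor on 83.2% to 96.8% of the 95 arrays, and all 8 probe sets were within 0.2 of it at once on 74 of 95 arrays. Their root mean square distance from the floor over all arrays was 0.0841 to 0.147. These values placed them at percentiles 18.7 to 22.2 of all 22548 probe sets, against a median distance of 0.597 over all of them. vit-1, at 0.504, lay at percentile 43.2, and 172673_x_at, at 0.788, at percentile 63.1. The oocyte and eggshell markers measured beside them had a median of 0.342 over 12 genes, and intestine markers 0.755 over 10.

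**Figure D1:**
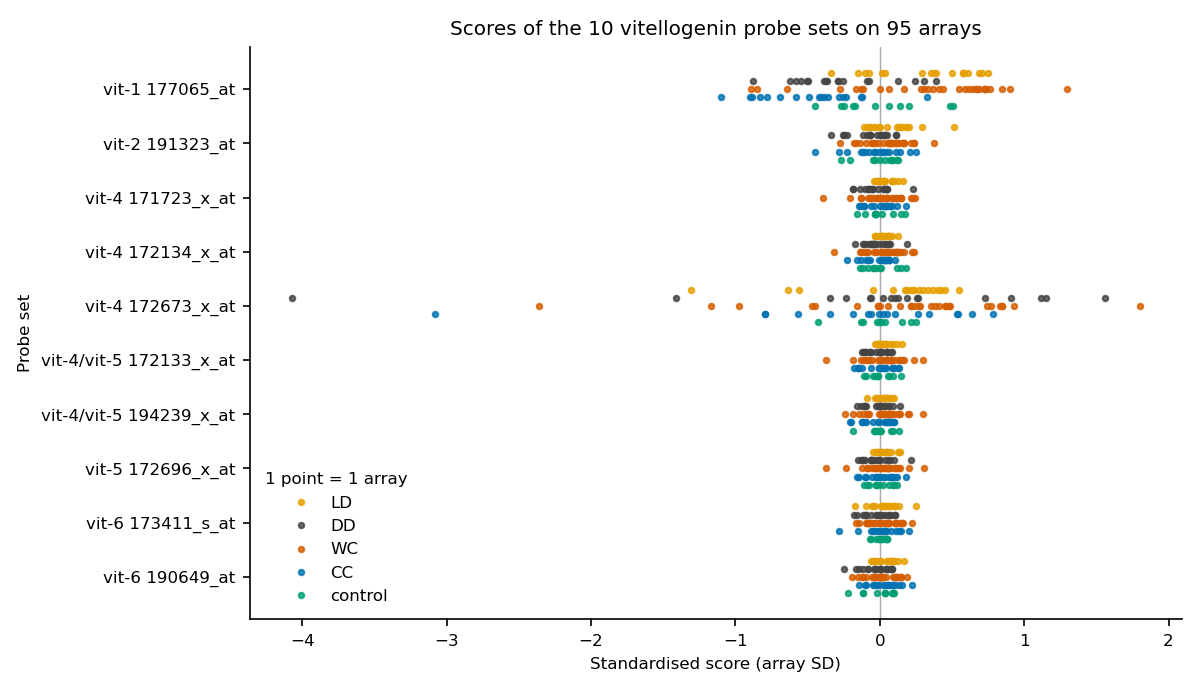
Standardised score (x axis, in array SD) of each of the 10 vitellogenin probe sets (y axis) on the 95 arrays, 1 point per array, coloured by condition. vit-1 spans -1.10 to 1.30 and 172673_x_at -4.07 to 1.80, while the other 8 stay between -0.452 and 0.515.

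vit-2, the major yolk protein gene with a probe set of its own, had scores from -0.111 to 0.515 in LD (median 0.0855, n = 18) and from -0.337 to 0.114 in DD (median -0.0434, n = 18). In WC they ran from -0.272 to 0.375 (median 0.0731, n = 30), in CC from -0.452 to 0.249 (median -0.0224, n = 18) and in controls from -0.269 to 0.126 (median 0.0356, n = 11). These ranges pool series that were centred differently and so do not compare conditions. In the series centred over both days, the vit-2 means were 0.106 in LD and -0.0760 in DD for series 4, and 0.146 in LD and -0.106 in DD for series 6, with overlap between the days in both. For vit-6, 190649_at ran from -0.0615 to 0.167 on the LD day and from -0.245 to 0.0868 on the DD day. It spanned -0.191 to 0.190 in WC, -0.147 to 0.222 on the CC day and -0.218 to 0.0966 among controls. The second vit-6 probe set, 173411_s_at, lay between -0.281 and 0.254 on all arrays. The vit-5 probe set 172696_x_at reached its extremes within 1 series, WC series 1, with 0.308 at hour 10 and -0.373 at hour 18.

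WC series 1 stood apart from the other series for these steady probe sets. The mean of the 8, taken from the floor, was 0.289 at hour 2 of that series and -0.320 at hour 18, and on the latter array all 8 were below the floor. The root mean square distance of the 8 over that series was 0.225, against 0.0607 to 0.143 in the other 15 series. The vit-1 tests that include WC series 1 and the correlations among members are also given without it.

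vit-1 was the exception among the vitellogenins, and the series centred over both days showed a difference between the days. In LD series 4 they were 0.390, 0.689, 0.711, 0.585, 0.575 and 0.574 from hour 2 to hour 22. In DD series 4, from hour 26 to hour 46, they were -0.291, -0.289, -0.500, -0.875, -0.258 and -0.623. Every LD array of the series was above every DD array. In LD series 6 the scores were 0.0175, 0.497, 0.0339, 0.609, 0.747 and 0.353, and in DD series 6 they were -0.368, -0.0913, -0.547, -0.0767, -0.374 and -0.385. The days of series 6 again did not overlap, and vit-1 was higher in LD at all 12 matched hours of the pair of series. The array floor was also higher in LD at each of these hours, so this count alone does not set vit-1 apart. With the floor subtracted, the lowest LD score of series 6 was -0.0339 and the highest DD score was -0.0547. How many of all probe sets share this pattern was not counted. LD series 3 and DD series 2, which were centred alone, have no day to be set against. The first ran from 0.377 at hour 2 to -0.339 at hour 18, and the second from 0.392 at hour 26 to -0.581 at hour 42.

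**Figure D2:**
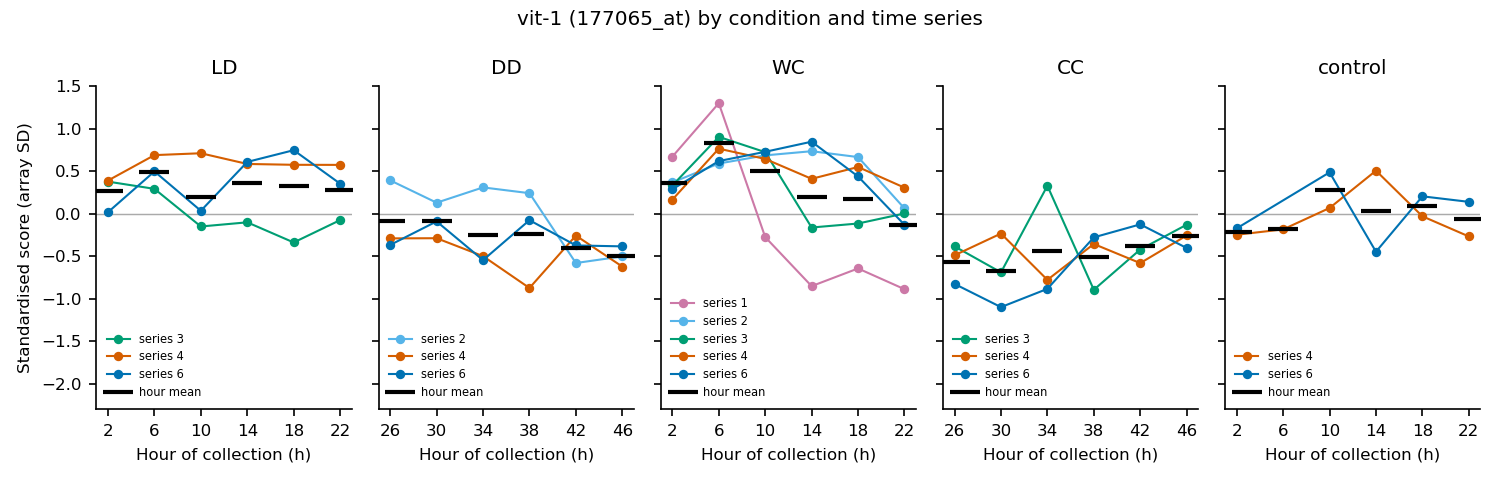
Standardised score of vit-1 (y axis, in array SD) by hour of collection (x axis, in h) in each condition, with 1 line per time series and a black bar at the mean of the series for each hour. In LD, DD and WC the bars pool series that were centred differently. LD series 4 and 6 lie above 0 and DD series 4 and 6 below 0 at every hour, and 17 of 18 CC arrays lie below 0.

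The LD day and the DD day were compared by limma with terms for series and hour. vit-1 was 0.872 score units higher in LD than in DD (SE 0.0958, 95% interval 0.669 to 1.07, Benjamini-Hochberg adjusted p = 3.83e-06). By series the difference was 1.06 in series 4 and 0.683 in series 6. This comparison called 7 of the 10 vitellogenin probe sets, all higher in LD, but it called 66.1% of all probe sets, and 50.4% of all were called higher in LD. The median difference over all probe sets was 0.0892 and the median over the 10 members was 0.0929. The array floor itself was higher on the LD day, by 0.0845 in series 4 and 0.0939 in series 6. With the floor of each array subtracted, 30.1% of all probe sets were called, and among the vitellogenins only vit-1, at 0.783 (SE 0.0954, adjusted p = 1.19e-05). The other 9 then had differences between -0.0317 and 0.128, with adjusted p from 0.146 upwards. Of these, vit-2 had the highest value, 0.128 (SE 0.0619, 95% interval -0.00323 to 0.259), after 0.217 as deposited. Leaving aside 172673_x_at, the 95% intervals of the other 8 lay between -0.0959 and 0.259, below the interval of vit-1, which began at 0.581. The gap between vit-1 and the rest was not itself tested.

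**Figure D3:**
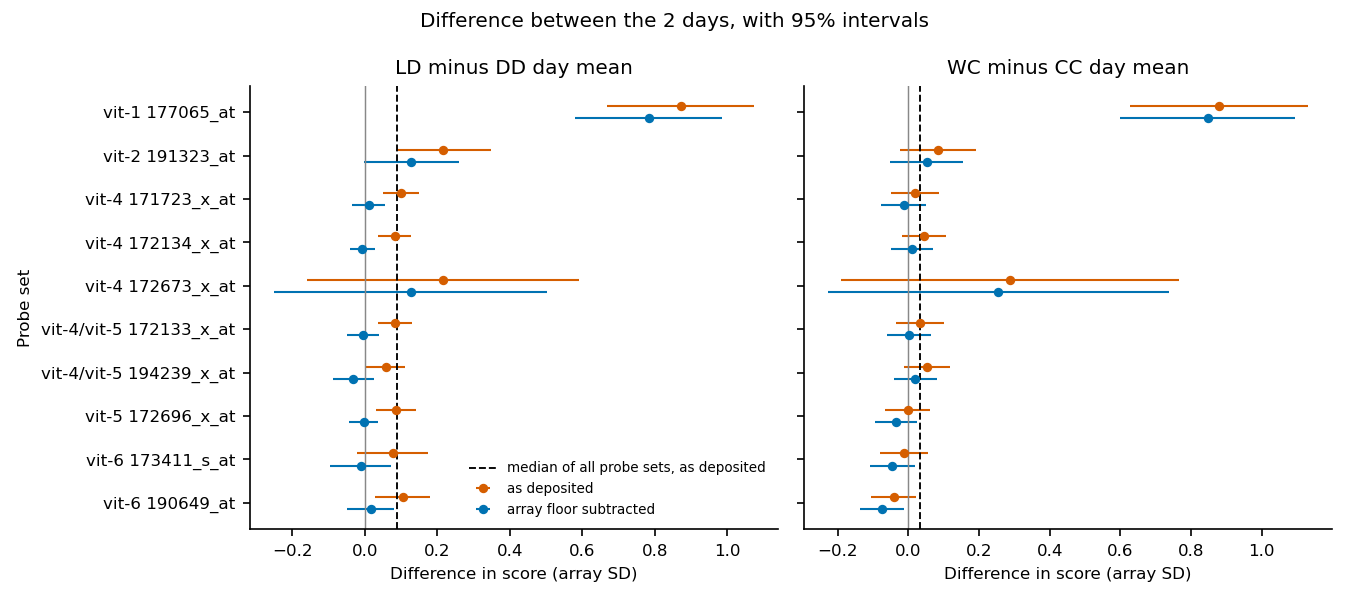
Difference between the entrainment day and the free-running day (x axis, in array SD) for each probe set (y axis), LD minus DD over 2 series at left and WC minus CC over 3 series at right, with 95% intervals, as deposited and with the array floor subtracted. vit-1 lies at 0.872 and 0.879 as deposited, and the dashed line marks the median of all probe sets, 0.0892 and 0.0325.

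In the temperature experiment vit-1 fell again from the entrainment day to the free-running day. In WC series 4 its scores were 0.165, 0.765, 0.644, 0.410, 0.549 and 0.306, and in CC series 4 they were -0.490, -0.234, -0.779, -0.357, -0.582 and -0.257, without overlap. In WC series 3 they were 0.332, 0.904, 0.724, -0.163, -0.116 and 0.00215, and in CC series 3 they were -0.385, -0.691, 0.328, -0.896, -0.422 and -0.130, so these days overlapped. In WC series 6 they were 0.287, 0.619, 0.728, 0.847, 0.438 and -0.131, and in CC series 6 they were -0.827, -1.10, -0.885, -0.279, -0.126 and -0.404, where the lowest WC array lay just under the highest CC array. vit-1 was higher in WC at all 18 matched hours of the 3 series. How many of all probe sets do the same, or do not overlap in series 4, was not counted. The difference in day mean was 0.647, 0.923 and 1.07 in series 3, 4 and 6.

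The limma estimate for vit-1 was 0.879 higher in WC than in CC (SE 0.123, 95% interval 0.628 to 1.13, adjusted p = 5.87e-06). It was the 1 of 10 vitellogenin probe sets called, where 22.8% of all probe sets were called and 11.4% called higher in WC. The floor moved less here than between LD and DD, and the median over all probe sets was 0.0325 against 0.0384 over the members. With the floor subtracted, 21.6% of all probe sets were called and vit-1 stood at 0.847 (adjusted p = 8.41e-06), still as the only vitellogenin. The vit-6 probe set 190649_at came next, at -0.0744 (95% interval -0.136 to -0.0132, adjusted p = 0.0778). As deposited, the other 9 lay between -0.0419 and 0.287, with adjusted p of 0.180 or more. Without 172673_x_at their 95% intervals lay between -0.104 and 0.193.

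The warm and the cold hours of the WC day were then set separately against the same hours of the CC day, which was at 15°C throughout. At hours 2 to 10, when WC animals were at 25°C, vit-1 was 1.14 higher in WC (SE 0.161, adjusted p = 2.13e-05). It was the only vitellogenin of 10 called, with 21.8% of all probe sets called and 10.1% called higher. At hours 14 to 22, when both days were at 15°C, vit-1 was 0.622 higher in WC (SE 0.161, adjusted p = 0.0145), again as 1 of 10, with 9.48% of all probe sets called and 5.53% called higher. This call at equal temperature was lost without series 4, at 0.522 and adjusted p = 0.249, and without series 6, at 0.605 and adjusted p = 0.173. At hours 2 to 10 the vit-6 probe set 190649_at was -0.0694 lower in WC, which did not pass (SE 0.0414, adjusted p = 0.177). It passed without series 4, at -0.143 (adjusted p = 0.0300).

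Within a day, no vitellogenin passed a test for a daily rhythm in any condition. The 24-h test, a limma F test of a fitted cosine wave, called 0 of 10 members in each of the 5 conditions. Over all probe sets it called 4.00% in WC and 0% in LD, DD, CC and controls. At an unadjusted p under 0.05 it held 1 member in WC and 0 in each of the other conditions, and with a robust, trended variance it again called 0 of 10 everywhere. For the 8 steady probe sets the fitted 24-h amplitude ranged over 0.0275 to 0.0841 for LD, 0.0155 to 0.0759 for DD, 0.0104 to 0.0324 for WC, 0.0278 to 0.0695 for CC and 0.0196 to 0.0764 for controls. The upper ends of their 95% intervals reached at most 0.193, the highest being in LD. vit-1 in WC had an amplitude of 0.377 (SE 0.108, adjusted p = 0.110), with a fitted peak at hour 7.38. Without WC series 1 the amplitude was 0.300 (adjusted p = 0.0514).

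The contrast of hours 2, 6 and 10 with hours 14, 18 and 22, which sets light or warmth against dark or cold on the entrainment days, also called 0 of 10 vitellogenin probe sets in every condition. Its calls over all probe sets came to 4.16% for LD, 0.00443% for DD, 2.43% for WC, 0.0577% for CC and 0% for controls. At an unadjusted p under 0.05 there were 2 members in DD, 1 each in WC and the controls, and 0 in LD and CC. For the 8 steady probe sets the difference lay between -0.0566 and 0.0961 in LD and between -0.0350 and 0.0328 in WC.

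vit-1 came closest, in WC. It was 0.486 higher in the warm than in the cold hours (SE 0.153, 95% interval 0.169 to 0.804, adjusted p = 0.0510), and the difference was above 0 in each of the 5 series, at 1.36, 0.0601, 0.746, 0.103 and 0.160 in series 1, 2, 3, 4 and 6. The mean over series was highest at hour 6, at 0.836 ± 0.290 (SD, n = 5), and lowest at hour 22, at -0.130 ± 0.453 (SD, n = 5). These means pool series that were centred differently, so the SDs include differences in zero point. The largest warm-minus-cold difference came from series 1, where vit-1 went from 1.30 at hour 6 to -0.889 at hour 22. Without series 1 the estimate was 0.267 (adjusted p = 0.231). The following settings carried it past the threshold, with adjusted p of 0.0382 without the series term, 0.0230 with a robust variance and 0.0251 without series 2. In LD the vit-1 difference had no common sign, at 0.345, 0.0184 and -0.387 in series 3, 4 and 6. In the controls it was -0.191 in series 4 and 0.192 in series 6, where the early mean rests on hours 2 and 10 alone.

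Differences of the early-minus-late contrast between conditions were tested in joint fits, and none of the 10 passed in any of 5. These fits called 0% of all probe sets for LD against DD, 3.21% for WC against CC, 0.208% for LD against control, 0.0887% for DD against control and 3.44% for LD against WC. At an unadjusted p under 0.05 there was 1 member for WC against CC and 1 for LD against WC, and 0 in the other 3. vit-1 had a difference of 0.665 between WC and CC (SE 0.245, adjusted p = 0.144) and of -0.494 between LD and WC (SE 0.225, adjusted p = 0.281). Without WC series 1 these became 0.446 (adjusted p = 0.270) and -0.275 (adjusted p = 0.442). The former was 0.421 without CC series 6 (adjusted p = 0.702), and the latter -0.305 without LD series 6 (adjusted p = 0.783). The LD and DD comparisons with controls share the control arrays.

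vit-4 and vit-5 gave the clearest case of probe sets for 1 gene that did not move alike. Of the 6 probe sets for these genes, 5 had pairwise correlations of 0.515 to 0.888 over the 95 arrays, whereas 172673_x_at, annotated to vit-4 alone and singled out after its values were seen, reached at most 0.210 with any other vitellogenin probe set. It had 7 arrays under -0.9, each in a different series, the lowest being -4.07 in DD series 2 at hour 30. On that array the other 5 lay between -0.00580 and 0.0694. It was -3.08 in CC series 6 at hour 38, where the others lay between -0.00355 and 0.0420, and -2.36 in WC series 2 at hour 14, where they lay between 0.0481 and 0.0730. In DD series 2 the 5 remaining arrays scored 0.732 to 1.56, the counterpart of 1 deep array in a series centred on its own mean. No low array of 172673_x_at recurred at the same hour in another series of its condition. Its values were left in all counts of 10.

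**Figure D4:**
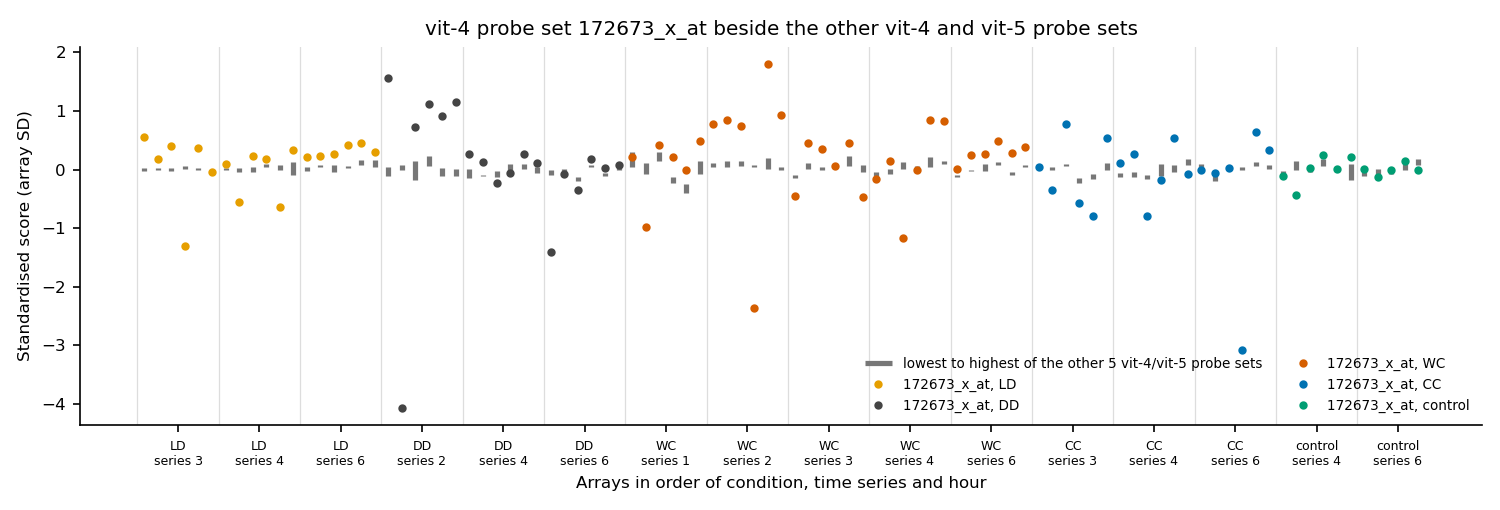
Standardised score (y axis, in array SD) of the vit-4 probe set 172673_x_at, 1 point per array, with the arrays ordered by condition, series and hour on the x axis, and a grey bar from the lowest to the highest of the other 5 vit-4 and vit-5 probe sets. The points fall to -4.07, -3.08 and -2.36 on single arrays where the bars stay near 0.

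Among the steady probe sets, small deviations were shared across genes. vit-2 correlated with the vit-6 probe sets 190649_at and 173411_s_at at r = 0.714 and 0.500 over the 95 arrays, and the vit-6 probe sets correlated with each other at 0.600. vit-2 and vit-6 together correlated with the 5 vit-4 and vit-5 probe sets at 0.383 to 0.662. vit-1 correlated with these 8 at 0.254 to 0.498, the highest being with vit-2. With the array floor subtracted the ranges were 0.310 to 0.663 for vit-2 and vit-6 with vit-4 and vit-5, and 0.126 to 0.439 for vit-1 with the 8. Without WC series 1 they were 0.383 to 0.641 and 0.275 to 0.573, and 0.424 to 0.897 within the 5 vit-4 and vit-5 probe sets. These are descriptions over arrays that share series and centring.

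The genes whose scores most resembled the mean of the 10 members over the 95 arrays were lipl-5, a lysosomal lipase gene (r = 0.646), C12D12.1 (0.638), cpz-1, a cathepsin Z-like protease gene (0.614), acs-22, a fatty acid transport protein homolog (0.595), clec-56 (0.593), T25B9.9 (0.588), slc-17.6 (0.581) and Y39B6A.1 (0.573). The lowest were atat-2 (-0.543), C31E10.6 (-0.542) and bmk-1 (-0.519). Since that mean is carried by vit-1 and 172673_x_at, the same ranking was made for vit-1 alone, a choice made after its values were seen. It gave ugt-46 (0.805), epic-1 (0.793), alh-9 (0.786), pkc-2 (0.783), npa-1, a fatty acid binding polyprotein gene (0.775), clec-4 (0.767), a second probe set of ugt-46 (0.762) and dsc-4 (0.758), and at the other end cav-1 (-0.744), igcm-4 (-0.718) and cdl-1 (-0.714).

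dsc-4, which encodes the large subunit of the microsomal triglyceride transfer protein that loads lipid onto vitellogenin and related lipoproteins, was thus among the 8 nearest to vit-1. Within conditions they correlated at 0.582 for LD, 0.841 for DD, 0.634 for WC, 0.521 for CC and 0.827 for controls. The values for LD, DD and WC pool series centred alone with series centred over both days. Differences in zero point between series, and with them the difference between the days, therefore enter these values. In the series centred over both days, mean dsc-4 scores were 1.01 in LD and -0.870 in DD for series 4, and 1.08 and -0.945 for series 6. They were 0.953, 0.783 and 0.548 in WC series 3, 4 and 6, and -1.27, -0.755 and -0.876 in CC of the same series. By limma, dsc-4, also a listed assembly gene, was 1.95 higher in LD than in DD (SE 0.174, adjusted p = 6.21e-07), where 66.1% of all probe sets were called. It was 1.73 higher in WC than in CC (SE 0.304, adjusted p = 1.04e-04), where 22.8% were called. The ranking by correlation with vit-1 used these same arrays, so these differences are not separate support for the likeness. dsc-4 was higher at all 12 matched hours of the former, where the array floor was higher too, and at 17 of 18 of the latter. How many of all probe sets reach such numbers of hours was not counted.

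**Figure D5:**
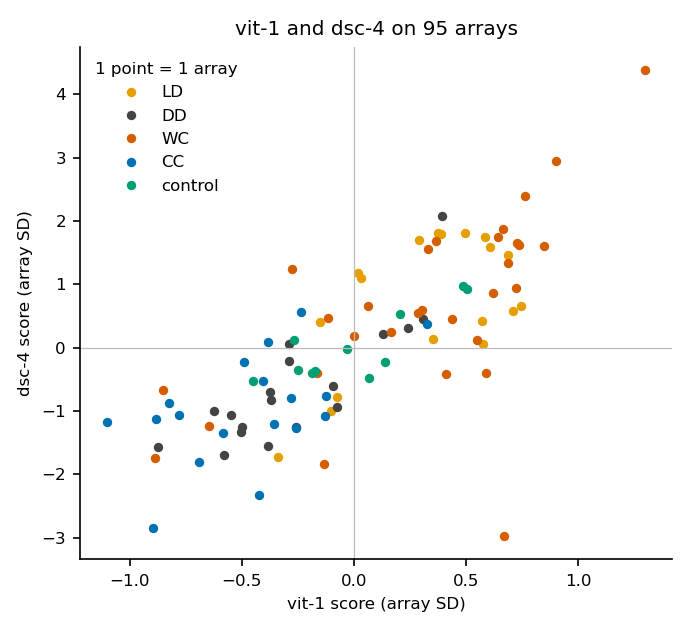
Score of dsc-4 (y axis, in array SD) against that of vit-1 (x axis, in array SD), 1 point per array, coloured by condition. Most LD and WC arrays lie at upper right and most DD and CC arrays at lower left, with r = 0.758 over 95 arrays, which include the series centred alone.

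The other genes of the yolk pathway are read against the share of all probe sets called. In LD against DD with the array floor subtracted, 14.3% of all probe sets were called higher in LD and 15.7% lower, and as deposited 50.4% and 15.8%. In WC against CC, 11.4% were called higher in WC and 11.4% lower. Of 10 genes for lipoprotein assembly and secretion, 3 rose and 0 fell in WC against CC, namely dsc-4, sec-23, a COPII coat subunit (0.422, SE 0.124, adjusted p = 0.0131), and sft-4, a SURF4 homolog that acts as a cargo receptor in secretion (0.327, SE 0.0957, adjusted p = 0.0129). The median of the 10 was 0.123. In LD against DD with the array floor subtracted, 2 rose and 3 fell, with a median of 0.0611. The 2 were dsc-4 (1.86) and sec-23 (0.335), and the 3 were the endoplasmic reticulum genes hsp-3 (-0.568), pdi-1 (-0.255) and pdi-3 (-0.246). Without the subtraction the counts were 3 and 3. In the WC 24-h test 1 of the 10 passed, the chaperone gene hsp-4, with an amplitude of 0.716 (SE 0.132, adjusted p = 0.00555). That test called 4.00% of all probe sets. Genes of other lists passed it too, the intestine marker pept-1 (amplitude 3.91, adjusted p = 0.00299) and the embryo marker vet-6 (amplitude 1.71, adjusted p = 1.79e-04).

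On the uptake side, 0 of 8 genes for yolk endocytosis and membrane traffic passed in WC against CC, and 2 rose and 1 fell in LD against DD with the floor subtracted (3 and 1 without). rme-2, the yolk receptor gene of the oocyte, had differences as deposited of 0.276 between LD and DD (SE 0.143, adjusted p = 0.0978) and 0.0674 between WC and CC (SE 0.0852, adjusted p = 0.529). The genes that passed in LD against DD with the floor subtracted were rme-8 (1.13) and rab-11.1 (0.635), which rose, and rme-6 (-1.28), which fell.

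Of 10 transcription factors that act on vitellogenin genes, 2 rose in WC against CC, ceh-60 (0.533, SE 0.147, adjusted p = 0.00862), a homeobox gene required for full yolk protein expression, and lin-29 (0.961, SE 0.288, adjusted p = 0.0151). In LD against DD with the floor subtracted, 3 rose and 1 fell (5 and 1 without). Among those 5, lin-29 had the median difference of all probe sets, 0.0892. elt-2 was 1.42 higher (adjusted p = 1.77e-04), elt-7 0.815 higher and ceh-60 0.745 higher (adjusted p = 0.0315), and daf-16, the FOXO factor of the insulin pathway, fell by 0.723. unc-62 and pqm-1 passed in neither, with -0.0315 and 0.0919 for LD minus DD and 0.0853 and 0.215 for WC minus CC as deposited. Of 12 genes of insulin, TOR and TGF-beta signalling, 1 rose and 2 fell in WC against CC, namely sgk-1 (0.683) and the kinase genes akt-1 (-0.498) and akt-2 (-1.55), and only daf-1 passed in LD against DD with the floor subtracted, at -1.23.

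The muscle, intestine and sperm markers called between the days were all higher on the entrainment day, as vit-1 was. The oocyte and eggshell markers and the embryo markers called included genes that fell. In LD against DD with the floor subtracted, 5 of 7 muscle markers rose and 0 fell (median 1.23), and 4 of 10 intestine markers rose and 0 fell (median 0.528), against the shares of all probe sets given above. Of 8 zygotic embryo markers 1 rose and 4 fell (median -1.03), of 12 oocyte and eggshell markers 4 rose and 2 fell (median 0.152), and 0 of 8 sperm markers passed. As deposited, 6 of 7 muscle, 8 of 10 intestine, 5 of 12 oocyte and eggshell, 2 of 8 embryo and 7 of 8 sperm markers rose, and 0, 0, 2, 4 and 0 fell. The sperm markers spe-9, spe-38 and fer-1 and the embryo marker med-1 each had the median difference of all probe sets there, 0.0892. Their values followed the array floor, so they could not pass with it subtracted. In WC against CC, 7 of 7 muscle markers rose (median 1.08), as did 3 of 10 intestine markers (median 0.481) and 4 of 8 sperm markers (median 0.959), while 0 of 12 oocyte and eggshell markers rose and 2 fell (median -0.0614), and 1 of 8 embryo markers rose and 2 fell. The scores give no level, so summed levels of the markers could not be formed, and their part in the vit-1 difference was not tested.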

How the data were processed

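RNA of 95 whole-animal samples was hybridised to 1 array each. Per the labels and the study's methods, the authors ran GCRMA in R 2.7.1 and turned log2 values into deviations from a time-series mean, with every array scaled to mean 0 and variance 1. The deposited values are therefore scores. Signal over background cannot be given, and the number of series limits the precision. The array holds 22625 probe sets, of which 77 are array controls and were not tested. Among the remaining 22548, 20766 had 1 gene symbol, 887 several and 895 none in the platform annotation.

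Centring sets were found as exact linear dependencies between arrays, and the array floor is the median of the densest 5% of scores. limma 3.58.1 in R 4.3.3 was fitted across all probe sets with terms for series and hour, and called under an adjusted p of 0.05. The labels give the series number as 1 time series experiment, which is the block. The fits were checked on simulated data of independent noise, without series effects, joint centring or a shared array floor. That check does not cover these features. Python 3.11.15, numpy 2.4.6, pandas 2.3.3 and matplotlib 3.10.9 were used for summaries and figures.

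The members and gene lists were chosen with earlier results of these data known. A filter on probe sets within 0.1 of the floor had been planned as the main setting. It keeps only 3 of 10 vitellogenin probe sets in LD, in DD and in LD against DD, so the unfiltered fit is the main one here, a change made after the data were seen, and the filter is an alternative. Named are all members, the 8 single-symbol probe sets nearest to their mean score and the 3 farthest, up to 4 genes per list and comparison, and rme-2, dsc-4, sft-4, ceh-60, unc-62 and pqm-1. Lists took 1 probe set per gene by ID. msd-1 and ssp-9 had none.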

Additional observations from a re-analysis of the deposited data

Results flagged for a closer look

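Within the 60 groups of 5 WC arrays of 1 hour and probe set, 7 held an array far from the other 4 by Dixon's ratio, where chance gives about 3. Of these, 4 were the lowest array in WC series 1. vit-1 at hour 10 was -0.276 there against 0.644 to 0.728 in the other series. At hour 14 of that series, 172133_x_at was -0.186 against 0.0201 to 0.103, and 194239_x_at, which shares vit-4 and vit-5 with it, was -0.188 against 0.0660 to 0.0833. At hour 18 the vit-6 probe set 173411_s_at was -0.168 against 0.0554 to 0.125. WC series 1 was centred alone, and WC series 3, 4 and 6 were centred together with CC. A difference in zero point therefore enters these ratios, above all for vit-1, which was lower in CC. The ratios were not computed with each series taken from its own WC mean.

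The other 3 came from other series. The vit-4 probe set 172673_x_at was -1.17 at hour 10 of series 4 against 0.271 to 0.744, and -2.36 at hour 14 of series 2 against -0.0143 to 0.490. The vit-6 probe set 173411_s_at was 0.114 at hour 2 of series 2 against -0.0898 to -0.0493.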

How the results depend on the processing

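The vit-1 day differences passed under all 11 settings for LD minus DD (0.683 to 3.31) and all 12 for WC minus CC (0.785 to 3.05), the highest values being in units of the median absolute deviation. The count of vitellogenin probe sets called in LD minus DD, 7, became 2 of the 3 kept by the floor filter, and 1 with median and median absolute deviation scaling, with the floor subtracted, and with the floor subtracted and the array SD recovered. The last 2 were chosen after seeing the data, and WC series 2 kept its scale there. It was 8 with no replicate block, with a robust variance and without the pooled arrays. Without 1 series the count was 1 to 5, with 1 without series 6. For WC minus CC at hours 2 to 10 the count of 1 became 2 under median scaling and with the array SD recovered, through vit-6, and was 1 to 2 without 1 series. At hours 14 to 22 it was 0 to 1 without 1 series. In WC early minus late the count of 0 became 1 with no replicate block and with a robust variance, and was 0 to 1 without 1 series. Apart from these 2 counts, leaving out the replicate block changed no count of vitellogenin probe sets called.

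Signs turned only where neither value passed. vit-1 in LD early minus late, -0.00782, became 0.0104 under median scaling, 0.000726 without the pooled arrays, 0.0127 with the floor subtracted and 0.00101 with the array SD recovered, and without 1 series ran from -0.184 to 0.182. vit-1 ran from -0.385 to 0.0656 in CC without 1 series, the latter without series 6, was 0.00138 in controls with the floor subtracted, and ran from -0.200 to 0.232 in LD against control without 1 series, with -0.134 without LD series 3 and -0.200 without control series 4. At hours 2 to 10 vit-2 became -0.000639 with the array SD recovered, and at hours 14 to 22 vit-6 ran from -0.0435 to 0.000727 without 1 series, the latter without series 6. Over all probe sets, the floor filter changed the number called from 0 to 160 in the LD 24-h test, 0 to 2 in the CC 24-h test, 939 to 1839 in LD early minus late, 13 to 27 in CC early minus late, 1 to 0 in DD early minus late and 14913 to 8922 in LD minus DD. Controls early minus late could not be fitted without 1 series, since no residual degrees of freedom remained.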
